A study of Mus musculus with 42 samples.

Results

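The miRNA content of small extracellular vesicles (EVs) shed by mouse cortical neurons was compared between the study's batches x and z. EVs are membrane particles of endosomal or plasma membrane origin that cells release into the medium. They carry short RNAs, among them miRNAs, which pair through their seed (bases 2 to 8) with messenger RNAs and lower the protein made from them. Which miRNAs a vesicle carries depends on the donor cell and on how RNA is loaded, and what is recovered also depends on how the vesicles were collected.

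The libraries were chosen by label alone. They are the 6 EV libraries numbered 1, 2 and 3, which carry the batch label x, and the 6 numbered 7, 8 and 9, which carry z, so 12 of the 42 samples of the series. All came from primary cortical neurons of NMRI embryos of day 16, given BDNF (brain-derived neurotrophic factor, 50 ng/ml for 20 min) or vehicle (Ctrl), with EVs taken from the medium 16 h later. Each batch held 3 Ctrl EV and 3 BDNF EV libraries. Every culture was first plated in horse serum and then moved to a medium with B27 supplement. The labels do not say what a batch is, how the vesicles were isolated or whether the numbers are separate cultures. Their run tags place all of batch x on lane L004 and all of batch z on lane L005, so preparation, lane and date cannot be told apart, and the p-values measure the spread between these libraries. The 12 lysates of the same numbers (6 per batch) are used only for contrast.

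Depth moved with the batch. EV libraries held 1758634 to 3945963 miRNA counts in batch x and 377116 to 1028029 in batch z, with no overlap, whereas lysates held 4569854 to 7055200 in batch x and 7412134 to 10260834 in batch z. The difference in EV totals had p = 0.005 (exact permutation of batch labels within treatment, two-sided, 400 arrangements, the smallest p they can give; 0.015 adjusted over 6 library measures). Neuron-enriched miRNAs took 38.7% to 46.4% of the EV counts in batch x and 32.2% to 41.8% in batch z, so the labelled source was visible in all 12 libraries. On the first principal component of log2 CPM (50.9% of the variance) all batch x libraries lay on one side and all batch z libraries on the other. BDNF EV 8, the shallowest library, stood apart on the second component (15%).

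**Figure D1:**
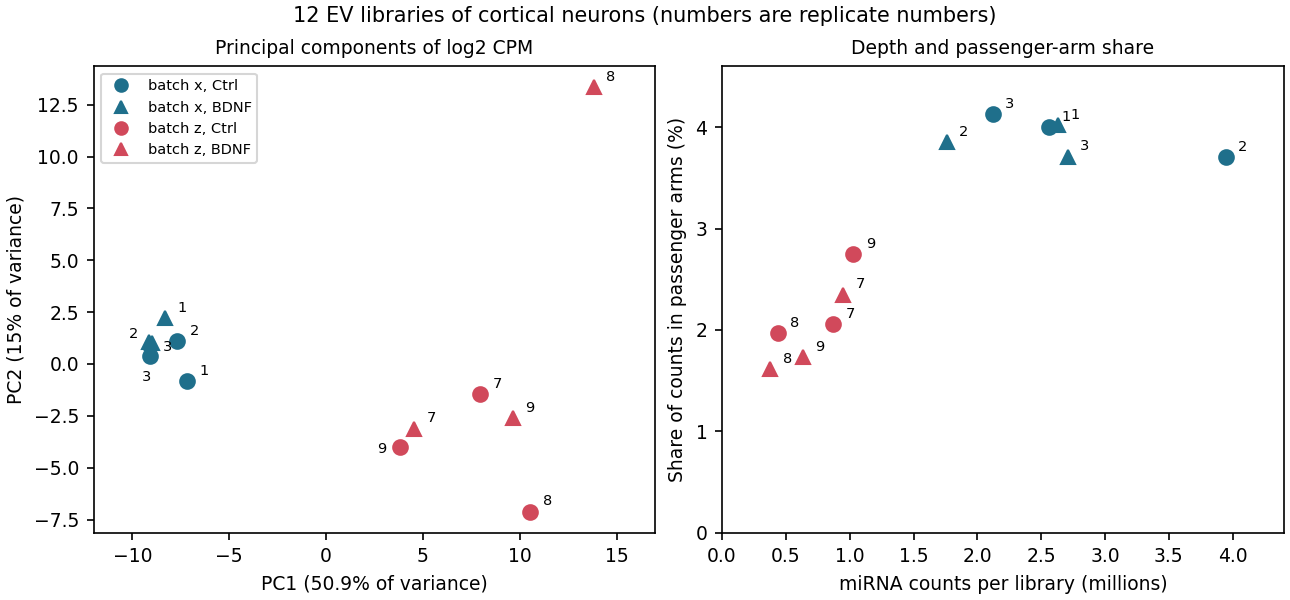
Left, the first 2 principal components of log2 CPM for the 12 EV libraries; right, the miRNA count of each library against the share of its counts in passenger arms (%). Colour marks the batch, shape the treatment and the number the replicate number; batches x and z separate on PC1 and in both measures on the right, and BDNF EV 8 stands apart on PC2.

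Sequences of some of the miRNAs described below, picked from those that differed between batches, are shown first, in RefSeq's mature form (GRCm38.p6, the assembly of mm10), with the seed in capitals. Mature sequences were matched for 356 of the 411 miRNAs tested (86.6%). The first set was higher in batch z.
miR-146a-5p: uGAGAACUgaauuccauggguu
miR-148a-3p: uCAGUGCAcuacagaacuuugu
miR-192-5p: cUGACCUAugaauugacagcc
miR-3473e: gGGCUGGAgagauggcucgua
miR-92b-3p: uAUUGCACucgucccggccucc

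The second set was lower in batch z and has none of the seeds of the first set.
miR-19b-3p: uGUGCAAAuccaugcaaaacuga
miR-384-3p: aUUCCUAGaaauuguucacaau
miR-137-3p: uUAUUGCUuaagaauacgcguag
miR-106b-5p: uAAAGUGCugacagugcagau
miR-30e-5p: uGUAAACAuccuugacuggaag
miR-326-3p: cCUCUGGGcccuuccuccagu

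The third set holds 3 let-7 miRNAs that share the seed GAGGUAG and differ in the bases after it; let-7b-5p and let-7c-5p were higher in batch z and let-7f-5p did not pass the test.
let-7b-5p: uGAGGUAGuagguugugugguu
let-7c-5p: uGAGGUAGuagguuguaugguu
let-7f-5p: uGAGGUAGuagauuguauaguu

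The miR-146a-5p sequence lies at chr11:43374435-43374456 on the minus strand, miR-148a-3p at chr6:51269829-51269850 (minus) and miR-137-3p at chr3:118433901-118433923 (plus). That of miR-19b-3p is encoded at 2 loci, on chromosomes 14 and X, and its counts cannot be assigned to either.

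About equal numbers of miRNAs were higher and lower in batch z. Of 411 miRNAs tested with edgeR's quasi-likelihood test with treatment as a covariate and Benjamini-Hochberg adjustment (hereafter edgeR adjusted p, threshold 0.05), 106 (25.8%) were higher and 115 (28%) lower, 221 in all (53.8%); 247 (60.1%) had an unadjusted p under 0.05. The median log2 fold change (batch z over batch x, as throughout) was -0.06 over all 411 and the median size of a called change was 0.90. A change of more than 2-fold was called for 47 miRNAs upwards (11.4%) and 49 downwards (11.9%). Of the 411, 356 reached the level that the filter on low counts asks for (7.18 CPM) in 3 libraries of each batch, with 25.6% higher and 29.2% lower; 24 others reached it in 3 libraries of batch z alone and 24 in 3 of batch x alone. A miRNA that entered through 1 batch alone was selected on its level there, which favours a call in that direction. Such members are named or counted apart beside each list. In CPM, 51 miRNAs (12.4%) had all 6 batch z libraries above all 6 of batch x, and 67 (16.3%) had all below. Per miRNA, the batch accounted for a median of 40.7% of the variance of log2 CPM and treatment for 4.43%, each with 1 degree of freedom. The replicate number within a batch accounted for 15.8% with 4 degrees of freedom and the rest for 24.2% with 5. The shares of terms with unlike degrees of freedom cannot be set side by side as sizes of effect.

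**Figure D2:**
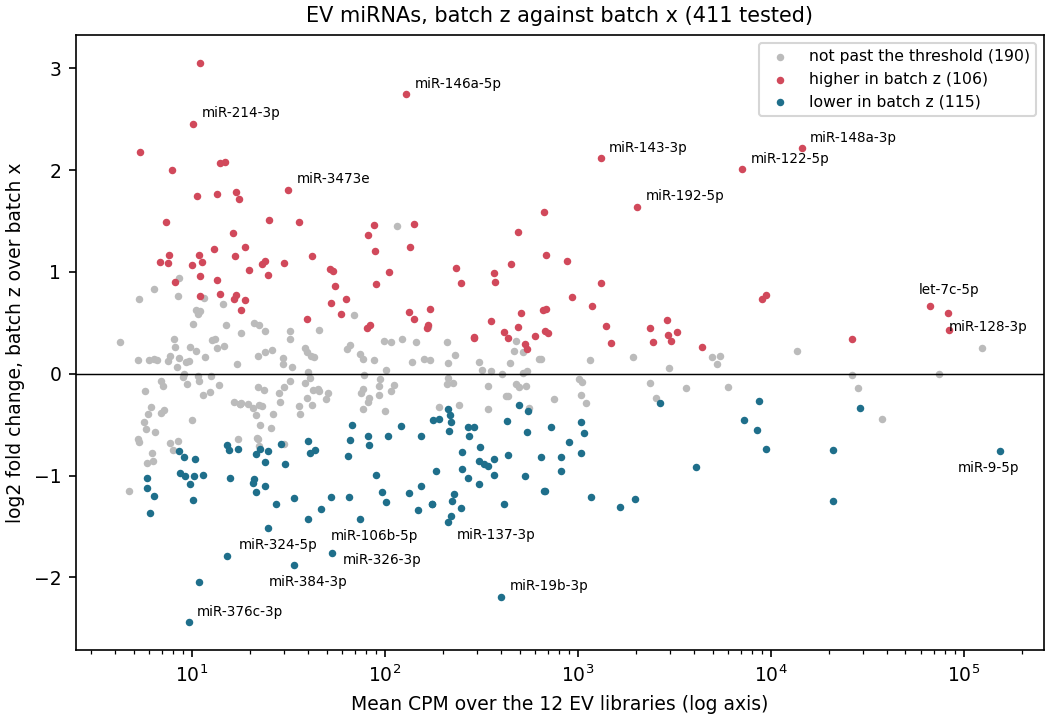
Mean level of each of the 411 miRNAs over the 12 EV libraries (CPM, log axis) against its log2 fold change, batch z over batch x. Red points are the 106 higher in batch z, blue points the 115 lower and grey points those not past the threshold; changes in both directions occur among scarce and abundant miRNAs.

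Of the 6 miRNAs that rose most among those averaging 20 CPM or more, miR-148a-3p, miR-143-3p, miR-122-5p and miR-192-5p are best known from tissues other than brain. Levels below are CPM with TMM factors computed over the 12 EV libraries. miR-146a-5p, which is induced by NF-kB and damps Toll-like receptor signalling, stood at 29.4, 31.2 and 35.4 CPM in Ctrl EV 1, 2 and 3 and at 33.1, 42.1 and 31.1 in BDNF EV 1, 2 and 3. In batch z it stood at 204, 263 and 217 in Ctrl EV 7, 8 and 9 and at 273, 186 and 206 in BDNF EV 7, 8 and 9. Every batch z library was far above every batch x library, in both treatments alike. Its fold was 6.72 (95% interval 5.43 to 8.31, log2 2.75 ± 0.15 SE, edgeR adjusted p = 6.02e-11).

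miR-148a-3p, a miRNA abundant in liver and fat, was the most abundant of the large rises. Its levels were 4435, 5679 and 3754 CPM in the Ctrl EVs and 6080, 5453 and 4740 in the BDNF EVs of batch x, then 23263, 21903 and 9861 in the Ctrl EVs and 16125, 45427 and 27235 in the BDNF EVs of batch z (replicate numbers in ascending order, here and below). The batches did not overlap, but the batch z libraries spread widely, from Ctrl EV 9 to BDNF EV 8. The fold was 4.65 (3.05 to 7.08, edgeR adjusted p = 3.00e-05).

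miR-143-3p, typical of smooth muscle, had 387, 507 and 541 CPM (Ctrl) and 568, 486 and 465 (BDNF) in batch x. In batch z it had 2653, 2044 and 2064 (Ctrl) and 1753, 2438 and 1915 (BDNF), a fold of 4.35 (3.63 to 5.22, edgeR adjusted p = 1.78e-10). No batch x value came near the batch z range. miR-122-5p, the dominant miRNA of hepatocytes, went from 3072, 3584 and 3145 (Ctrl) and 2759, 2493 and 2112 CPM (BDNF) to 10922, 11614 and 8708 (Ctrl) and 10377, 15671 and 11309 (BDNF). The batches again lay apart, and the fold was 4.02 (3.26 to 4.96, edgeR adjusted p = 3.86e-09).

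miR-192-5p, a miRNA of liver, kidney and gut that p53 induces in human cells, stood at 846, 1087 and 937 CPM (Ctrl) and 1121, 980 and 931 (BDNF) in batch x. The batch z values were 3372, 2752 and 2082 (Ctrl) and 2897, 4131 and 3321 (BDNF), all higher, and the fold was 3.12 (2.58 to 3.77, edgeR adjusted p = 1.38e-08). miR-3473e was scarce, with 18.2, 8.70 and 7.36 CPM (Ctrl) and 17.9, 13.7 and 12.9 (BDNF) in batch x and 32.7, 102 and 19.0 (Ctrl) and 29.2, 79.5 and 39.1 (BDNF) in batch z. The batches met almost edge to edge and the highest batch z values were both of number 8. On the log2 scale it rose by 1.81 ± 0.39 (SE, edgeR adjusted p = 9.64e-04), or by 1.13 with both libraries of number 8 left out.

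At the same minimum of 20 CPM, the next 6 rises had log2 fold changes between 1.39 and 1.59. They were the neuronal miR-139-5p (330 ± 44.4 CPM in batch x and 1004 ± 231 in batch z, SD, n = 6 each), miR-92b-5p, miR-3473b, miR-1981-5p, miR-1298-5p and miR-92b-3p. miR-3473b shares its seed GGCUGGA with miR-3473e, and miR-92b gave both arms of its hairpin, 1.51 ± 0.26 for the 5p and 1.39 ± 0.13 for the 3p arm (log2, SE).

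The miRNAs that fell most, again among those averaging 20 CPM or more, included miR-137-3p and miR-138-5p, which act in neurons. miR-19b-3p, a member of the miR-17-92 cluster, had 574, 505 and 763 CPM (Ctrl) and 731, 809 and 577 (BDNF) in batch x. In batch z it had 128, 100 and 349 (Ctrl) and 183, 35.3 and 54.5 (BDNF). All batch z values were lower, with a wide spread among them, and Ctrl EV 9 was the highest. The change was -2.19 ± 0.44 (log2, SE, edgeR adjusted p = 0.00175), and batch x held 4.56 times the level of batch z.

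miR-384-3p stood at 57.4, 52.2 and 42.3 CPM (Ctrl) and 53.0, 55.8 and 51.9 (BDNF) in batch x against 8.47, 26.1 and 15.6 (Ctrl) and 8.33, 29.4 and 6.81 (BDNF) in batch z. The batch x libraries were close together and all above batch z (log2 -1.88 ± 0.27, edgeR adjusted p = 1.27e-05). miR-137-3p, which governs neuronal maturation and lies at a human schizophrenia risk locus, had 229, 341 and 328 CPM (Ctrl) and 330, 313 and 346 (BDNF) in batch x. It had 98.0, 97.8 and 147 (Ctrl) and 143, 106 and 83.4 (BDNF) in batch z, again without overlap (log2 -1.46 ± 0.16, edgeR adjusted p = 6.51e-07).

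miR-326-3p and miR-324-5p are known from human tumour cells as repressors of Hedgehog signalling. The former had 97.6, 74.4 and 82.4 CPM (Ctrl) and 69.8, 83.1 and 92.8 (BDNF) in batch x and 23.0, 17.4 and 29.4 (Ctrl) and 33.3, 17.7 and 18.7 (BDNF) in batch z (log2 -1.76 ± 0.19, edgeR adjusted p = 6.51e-07). The latter had 47.2, 33.8 and 33.6 (Ctrl) and 34.7, 41.5 and 31.4 (BDNF) in batch x and 9.68, 19.6 and 12.1 (Ctrl) and 16.7, 5.89 and 11.9 (BDNF) in batch z. For both, each batch z library lay under the lowest batch x library, and miR-324-5p changed by -1.52 ± 0.23 (log2, SE, edgeR adjusted p = 2.17e-05).

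miR-106b-5p, of a paralogous cluster of miR-17-92, had 82.2, 101 and 128 CPM (Ctrl) and 115, 115 and 118 (BDNF) in batch x. Batch z had 55.7, 47.8 and 43.2 (Ctrl) and 51.0, 17.7 and 20.4 (BDNF), with BDNF EV 8 and 9 lowest (log2 -1.43 ± 0.22, edgeR adjusted p = 2.17e-05). The following 6 falls at that minimum, from -1.43 to -1.31, were those of miR-350-3p, miR-410-3p, miR-138-5p, miR-369-3p, miR-135a-5p and miR-340-5p. Among them miR-138-5p, which limits the size of dendritic spines, went from 213 ± 45.6 to 83.2 ± 29.6 CPM and miR-340-5p from 2375 ± 577 to 946 ± 259 (SD, n = 6 each).

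**Figure D3:**
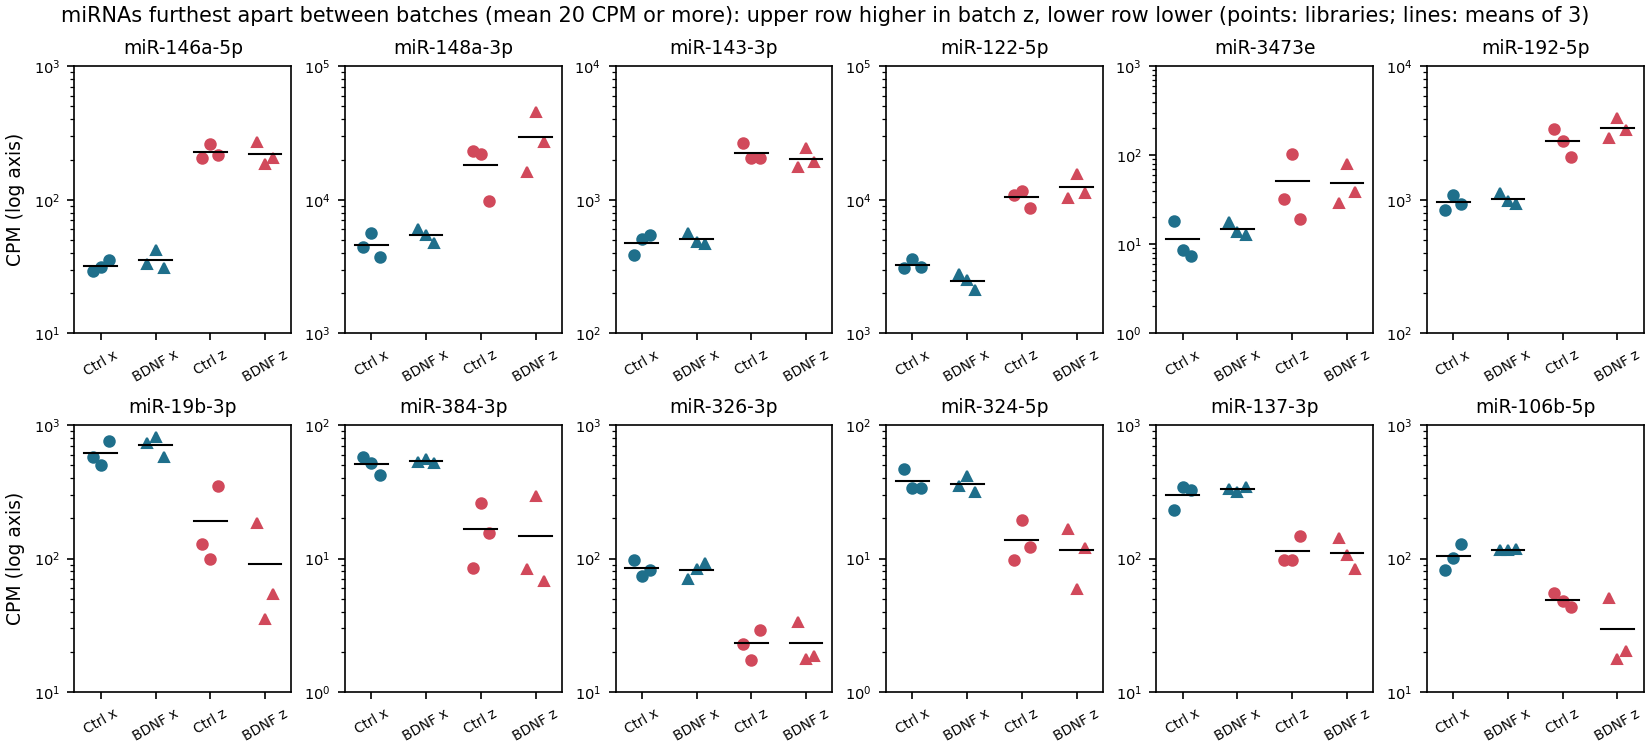
Level of the 6 miRNAs with the largest rise (upper row) and the 6 with the largest fall (lower row), among those called that average 20 CPM or more, in each EV library (CPM, log axes that differ between panels), by treatment and batch. Points are libraries and lines the means of 3; in all 12 panels the 6 batch z libraries lie apart from the 6 of batch x, and the Ctrl and BDNF groups of a batch lie side by side.

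The most abundant miRNA changed rank. miR-9-5p, which controls the timing of neurogenesis, was first in all 6 libraries of batch x and in batch z only in Ctrl EV 9, while miR-128-3p, which limits neuronal excitability, led the other 5. The share of miR-9-5p in the counts was 19.4% ± 1.95 in batch x and 11.3% ± 0.797 in batch z (SD, n = 6 each). By library it had 144733, 188582 and 190005 CPM (Ctrl) and 227206, 196572 and 216610 (BDNF) in batch x, and 121903, 102346 and 104645 (Ctrl) and 111974, 136024 and 108027 (BDNF) in batch z. All batch z values were lower (log2 -0.76 ± 0.10, edgeR adjusted p = 8.87e-06).

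miR-128-3p itself had 91799, 140011 and 98456 CPM (Ctrl) and 118966, 113533 and 118176 (BDNF) in batch x and 139627, 122818 and 85620 (Ctrl) and 130167, 185037 and 157091 (BDNF) in batch z. The batches overlapped and the difference did not pass (log2 0.25, 95% interval of the fold 0.976 to 1.45, edgeR adjusted p = 0.129). miR-7a-5p, which targets alpha-synuclein, had 61085, 77490 and 64249 (Ctrl) and 81073, 75572 and 67673 (BDNF) in batch x against 103142, 81808 and 58832 (Ctrl) and 98338, 108648 and 131426 (BDNF) in batch z. It was higher in batch z by 0.43 ± 0.13 (log2, SE, edgeR adjusted p = 0.00977), with Ctrl EV 9 below every batch x library; without Ctrl EV 7 or without BDNF EV 9 the change was 0.31 or 0.30 and did not pass.

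let-7c-5p, of the family that promotes differentiation, had 77256, 66596 and 65161 CPM (Ctrl) and 62608, 62893 and 61482 (BDNF) in batch x and 95416, 98269 and 96150 (Ctrl) and 96727, 109131 and 103040 (BDNF) in batch z. The batches did not overlap (log2 0.60 ± 0.09, edgeR adjusted p = 2.09e-05). let-7f-5p had 56966, 71738 and 73139 (Ctrl) and 83843, 81495 and 82761 (BDNF) in batch x and 90273, 54415 and 69197 (Ctrl) and 74745, 73816 and 85095 (BDNF) in batch z. It showed no detectable difference, with a 95% interval of the fold of 0.845 to 1.18. Of the other 5 among the 10 most abundant, miR-99a-5p was higher (log2 0.66 ± 0.12), miR-26a-5p lower (-0.34 ± 0.09), and miR-125b-5p, let-7g-5p and let-7i-5p did not pass (-0.45, -0.14 and -0.01).

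Of 23 neuron-enriched miRNAs, all tested, 5 were higher, a share close to the 25.8% of all miRNAs, 12 were lower (28% of all) and 6 did not pass, with a median log2 of -0.53 beside -0.06 for all 411. Both arms of miR-9 (-0.76 and -1.25) and both arms of miR-124 (-0.92 for 3p and -0.57 for 5p), the classical neuronal miRNA, were lower, as were miR-137-3p, miR-138-5p and miR-488-3p (-1.09 ± 0.12). miR-139-5p, miR-149-5p (0.89 ± 0.13), miR-129-5p, miR-328-3p and miR-7a-5p were higher, so the list did not move as one. Less RNA per vesicle and fewer vesicles of a given source cannot be told apart in such bulk samples.

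Among 12 tested miRNAs known to respond to neuronal activity or BDNF, 3 were higher, 6 lower and 3 did not pass (median -0.21), beside 25.8% higher and 28% lower of all 411. They included miR-134-5p, a dendritic miRNA (0.42 ± 0.11), and miR-212-5p (-0.65 ± 0.17). miR-132-3p, a CREB target, was lower by -0.30 ± 0.12 (edgeR adjusted p = 0.0392), a call that 14 of the other settings tried did not keep. miR-132-5p changed by 0.14 ± 0.16 and miR-218-5p by 0.10 ± 0.13, and neither passed. miR-690 had 21.3 to 56.6 CPM in batch x and 12.1 to 103 in batch z and did not pass (-0.16 ± 0.33); its difference was -1.07 in the Ctrl EVs and 0.49 in the BDNF EVs, with an unadjusted p of 0.00909 and an edgeR adjusted p of 0.959 for the difference between treatments.

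Lists for sources other than neurons held members that were higher in batch z. Of 17 vascular and mesenchymal miRNAs 12 were tested. miR-214-3p and miR-10b-5p entered the test through batch z alone; of the other 10, 9 were higher and 1, miR-31-5p, lower (-0.74 ± 0.25), beside 25.6% and 29.2% of all miRNAs that reached the filter level in both batches. Those higher, with miR-214-3p and miR-10b-5p included, were miR-143-3p, its cluster partner miR-145a (1.24 for 5p and 1.02 for 3p), the endothelial miR-126a-3p (1.04 ± 0.16), miR-214-3p (2.46 ± 0.37, from 3.22 ± 1.10 to 17.1 ± 9.17 CPM, SD, n = 6 each), miR-199a-3p, miR-199a-5p, miR-10a-5p, miR-10b-5p, miR-21a-5p and miR-22-3p. The whole list of 17 summed to 0.258% to 0.301% of the counts in batch x and 0.474% to 0.604% in batch z, without overlap; miR-196b-5p had no count in any EV library.

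Of the 9 liver and serum miRNAs, 5 were tested, 2 were higher (miR-122-5p and miR-192-5p) and 3 did not pass, with miR-194-5p, the cluster partner of miR-192, at 0.03 ± 0.14. Among all miRNAs 25.8% were higher. The summed share of the list was 0.403% to 0.574% in batch x and 1.34% to 1.90% in batch z. Of 9 blood and immune miRNAs 4 were tested. The erythrocyte miR-451a (1.76 ± 0.33) entered through batch z alone, and the other 3, the erythrocyte miR-486a-5p (0.46 ± 0.12) and the leukocyte miR-142a-5p (1.72 ± 0.26) and miR-155-5p (1.22 ± 0.33), were higher. Their list summed to 0.0384% to 0.0618% in batch x and 0.0532% to 0.0764% in batch z, ranges that overlap. miR-142a-3p had no count in any EV library, and miR-223-3p had 5 counts in batch x and 0 in batch z.

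Of 7 muscle miRNAs only miR-1a-3p was tested, and it did not pass (1.45 ± 0.61, edgeR adjusted p = 0.0668). Ctrl EV 7 alone held 687 CPM of it, beside 47.8 to 88.3 in the other 5 batch z libraries and 40.1 to 78.2 in batch x, and without Ctrl EV 7 the difference was 0.37 ± 0.20. That list summed to 0.00450% to 0.00858% in batch x and 0.00570% to 0.0656% in batch z, the highest being Ctrl EV 7, and miR-208a-3p had no count in any EV library. In the oligodendrocyte and choroid plexus list 4 of 6 were tested: miR-219a-2-3p of oligodendrocytes was higher (1.25 ± 0.18), miR-204-5p of choroid plexus lower (-0.77 ± 0.11) and 2 did not pass, and the list summed to 0.0372% to 0.0550% and 0.0318% to 0.0636%. In the epithelial list 5 of 10 were tested: miR-200b-3p (2.00 ± 0.31, at 3.23 and 12.6 CPM) entered through batch z alone and miR-96-5p, which was lower, through batch x alone, while miR-183-5p was lower and 2 did not pass, at sums of 0.0548% to 0.0595% and 0.0400% to 0.0620%. The part of cells, medium or handling in these lists was not tested. A list's members with the lowest counts were not tested, so these counts cover the tested members alone.

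Some seed groups and genomic clusters had all their members called in one direction. That was so for 3 of 11 seed groups with 3 or more tested miRNAs of known sequence and for 3 of 21 clusters, all 6 of which are described here. Calls in both directions were held by 3 seed groups and 7 clusters. Of all 411 miRNAs, 25.8% were higher and 28% lower, and the groups were not tested as sets. In the miR-17-92 clusters and their paralogues, which drive proliferation, 10 of 13 were tested. miR-18a-5p and miR-363-3p entered through batch x alone; of the other 8, 6 were lower and 2 higher, beside 29.2% and 25.6% of all that reached the filter level in both batches. Those lower, miR-18a-5p and miR-363-3p included, were miR-17-5p, miR-18a-5p, miR-19a-3p, miR-19b-3p, miR-20a-5p, miR-363-3p, miR-106b-5p and miR-93-5p, and those higher miR-92a-3p (0.32 ± 0.11) and miR-25-3p (0.45 ± 0.10). Among tested miRNAs with a matched sequence, the 4 with the seed AAAGUGC, shown above in miR-106b-5p, were lower (-1.43 to -0.997), whereas of 5 with the seed AUUGCAC, shown in miR-92b-3p, 3 were higher and 1 lower. At chr14:115043671-115044506 (plus strand), where 1 transcript gives miR-17 to miR-92a, 6 of 8 tested mature miRNAs were lower and 1 higher.

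The 4 miRNAs with a matched sequence and the miR-30 seed GUAAACA, shown in miR-30e-5p, were lower (-1.23 to -0.45). Of 2 further members of that family, whose sequences were not matched, miR-30b-5p was lower (-1.26 ± 0.13) and miR-30d-5p did not pass (0.23 ± 0.10). The 4 matched miR-181 members with the seed ACAUUCA were lower (-1.16 to -0.26), and so were 3 of 5 with the miR-15 and miR-16 seed AGCAGCA. Of all 411 miRNAs 28% were lower. Members of the seed CAGUGCA diverged as well: miR-148a-3p rose by 2.22, miR-152-3p by 0.45, and miR-148b-3p changed by -0.78 (log2).

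The let-7 family had 4 of 10 tested members higher (let-7a-5p, let-7b-5p, let-7c-5p and let-7d-5p, 0.27 to 0.78), 2 lower (let-7j and miR-98-5p) and 4 that did not pass, beside 25.8% and 28% of all 411. At chr15:85706603-85707403, which encodes let-7c-2 and let-7b, all 3 tested mature forms were higher. One of them, let-7c-5p, is also encoded on chromosome 16, and its counts cannot be assigned to either locus. At chr1:162217814-162223477, which encodes miR-199a-2 and miR-214, all 3 were higher (0.90 to 2.46), and at chr3:69009772-69009996, which encodes miR-15b and miR-16-2, all 3 were lower (-1.22 to -0.66), but miR-214-3p entered through batch z alone and miR-15b-3p through batch x alone. The imprinted Dlk1-Dio3 cluster, a large maternally expressed group in brain, had 9 higher, 17 lower and 42 not passing of 68 tested (median -0.12), beside 25.8% higher and 28% lower of all 411. Of the 60 that reached the filter level in both batches, 9 were higher (15.0%) and 14 lower (23.3%). Its lowest members, both of which entered through batch x alone, were miR-376c-3p (-2.44 ± 0.46, from 16.6 ± 3.67 to 2.71 ± 2.98 CPM, SD, n = 6 each) and miR-376a-5p (-2.05 ± 0.37), and miR-667-5p (1.16 ± 0.23) and miR-127-3p (0.73 ± 0.12) were among those higher.

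The arms of a hairpin did not always move alike. Of 96 hairpins with both arms tested, 28 had both called, 21 in the same direction (8 higher and 13 lower) and 7 in opposite directions. Of all 411 miRNAs 53.8% were called, 25.8% higher and 28% lower. Whether arms were called together more often than those shares give was not tested. Arms that entered through 1 batch alone are included, such as both arms of miR-376a, which were lower and entered through batch x. miR-151-3p was higher (1.11) and miR-151-5p lower (-1.21), miR-30a-3p higher (0.75) and miR-30a-5p lower (-0.45), and miR-331-5p higher (0.97) and miR-331-3p lower (-0.96). Passenger arms, here the arm of each hairpin with fewer counts over all 24 libraries, held 3.70% to 4.12% of the EV counts in batch x and 1.61% to 2.74% in batch z. In EVs that arm was not always the scarcer one. miR-485-5p, a passenger by this rule, had 4087 counts in batch x EVs beside 3449 of miR-485-3p. That measure differed by -1.82 percentage points (p = 0.005, exact permutation within treatment, two-sided; adjusted p = 0.015). Most of it was miR-9-3p, which took 2.98% of the batch x counts and 1.25% of those of batch z. Without miR-9-3p the share was 0.924% ± 0.0968 and 0.830% ± 0.0886 (SD, n = 6 each), and the batches overlapped.

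Entries with miR numbers of 1000 and above, many of them annotated late and scarce, held a larger share in batch z (0.590% on average, beside 0.489% in batch x, p = 0.01, exact permutation, two-sided; adjusted p = 0.02). Of 51 tested, 18 were higher, 6 lower and 27 did not pass, beside 25.8% and 28% of all 411. Of the 37 that reached the filter level in both batches, 12 were higher (32.4%) and 5 lower (13.5%). In the repeat-rich miR-297, miR-466, miR-467 and miR-669 cluster 12 of 70 were tested; miR-466f-3p, which entered through batch z alone, was higher (1.10 ± 0.29) and 11 did not pass. Diversity did not differ detectably: the number of entries detected after thinning to 377116 counts (542 ± 9.62 and 547 ± 18.8, p = 0.53), the share of the 10 most abundant miRNAs (71.1% ± 1.79 and 71.7% ± 2.22, p = 0.495) and the effective number of miRNAs (27.0 ± 2.02 and 27.6 ± 2.47, p = 0.565) overlapped between batches (SD, n = 6 each, exact permutation tests).

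Base composition went with the direction of change in EVs. The 91 higher miRNAs with a sequence had a median GC content of 52.4%, the 105 lower ones 42.9% and those not called 50.0%. miRNAs that entered the test through 1 batch alone, such as miR-214-3p (batch z) and miR-376a-5p (batch x), are included here. The 356 with a sequence are thus not the same set as the 356 that reached the filter level in both batches. Under 36% GC, as in miR-384-3p or miR-137-3p above, the median log2 was -0.80, with 4 higher and 17 lower of 27. It was -0.41 from 36% to 45% (15 higher and 39 lower of 88), -0.04 from 45% to 55% (33 and 39 of 140) and 0.25 at 55% and above (39 and 10 of 101). Exceptions such as the GC-rich miR-326-3p, which was lower, and miR-146a-5p and miR-148a-3p, which were higher at 40.9% GC, lay outside that order. Across these 356 miRNAs, which share the same 12 libraries and are not independent, Spearman's rho of GC content and log2 fold change was 0.34 in EVs and -0.02 in lysates of the same batches, whose bin medians lay between 0.02 and 0.10. Length and abundance showed rho of -0.03 and -0.02. The mean GC content of miRNA counts was 40.6% to 41.7% in batch x EVs and 41.8% to 42.9% in batch z EVs. In lysates it was also mostly higher in batch z, at 39.2% to 39.9% in batch x and 39.8% to 40.6% in batch z. Without the 10 most abundant EV miRNAs it was 44.1% to 45.1% in batch x EVs and 45.5% to 46.8% in batch z EVs. The lysates then overlapped, at 44.2% to 46.4% in batch x and 44.2% to 45.6% in batch z.

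**Figure D4:**
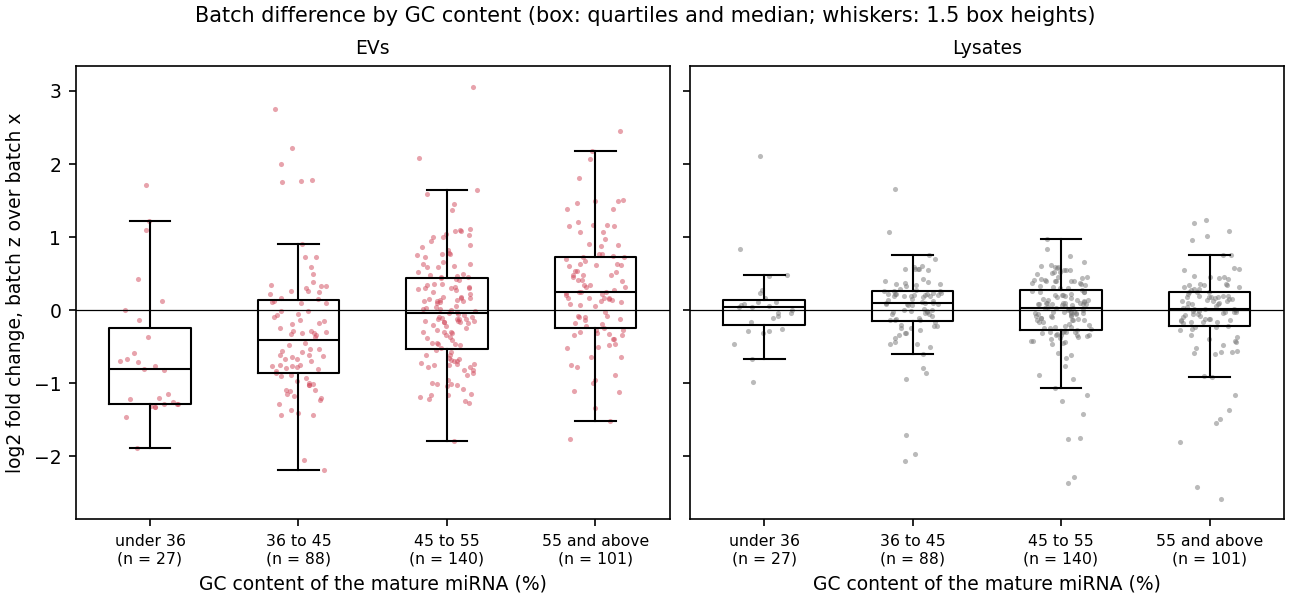
Log2 fold change (batch z over batch x) of miRNAs by GC content of the mature sequence (%), in EVs (left) and in lysates (right). Points are miRNAs, boxes show quartiles and median, and whiskers reach 1.5 box heights; the EV medians go from -0.80 in the lowest bin to 0.25 in the highest, and the lysate medians stay near 0.

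The letters GGAG, a motif tied in human T cells to loading of miRNAs into exosomes by hnRNPA2B1, were searched on the mature strand. They occurred in 19 of the 91 higher miRNAs (20.9%), in 2 of the 105 lower ones (1.90%), in 22 of those not called (13.8%) and in 43 of all 356 (12.1%). As GGAG is itself rich in G and C, its share and the GC content moved together here, and which of them went with the batch was not tested.

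The batch differences were found in Ctrl and in BDNF EVs. Fitted alone, the Ctrl EVs had 62 miRNAs higher (15.4%) and 66 lower (16.4%) of 402 tested, and the BDNF EVs 90 higher (24.1%) and 97 lower (25.9%) of 374. All 209 of the 221 calls that could be fitted in both had the same sign in both, and 108 were called in each. The 221 were picked by a fit of these same libraries together, so that agreement in sign was largely fixed in advance and is no separate support. No miRNA had a batch difference that differed between Ctrl and BDNF EVs (0 of 411, 0% by edgeR and 0 by DESeq2; 13 at an unadjusted p under 0.05, 3.16%). miR-122-5p changed by 1.67 in the Ctrl EVs and 2.38 in the BDNF EVs (log2), with an unadjusted p of 0.0101 and an edgeR adjusted p of 0.959 for that difference.

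Batch z libraries also varied more among themselves. The biological coefficient of variation between libraries of one treatment was 13.7% for batch x against 24.7% for batch z. After all EV libraries were thinned to 377116 counts it was 12.4% against 23.7%, about as large. The lysates had 12.0% in batch x and 8.67% in batch z. Spearman's rho between libraries ran from 0.981 to 0.989 within batch x, from 0.933 to 0.967 within batch z and from 0.893 to 0.954 between batches. At equal depth the comparison of batches called 87 miRNAs higher and 80 lower of 297 tested. With both libraries of number 8 left out, a setting chosen after seeing the data, it called 101 higher and 120 lower of 465, and 198 of the 221 calls were among them.

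Batch differences in the lysates of the same numbers bore little relation to those in EVs. In a fit of all 24 libraries, 86 of 574 miRNAs (15%) were higher and 93 (16.2%) lower in batch z lysates, 179 in all (31.2%). The median size of the log2 fold change was 0.27 in lysates and 0.58 in EVs, and Pearson's r between them across the 574 miRNAs was 0.03, as a description. The filter of this fit used all 24 libraries, and the lysates were deeper. Its 574 miRNAs, beside 411 in the EV fit, thus include some of low count in EVs. Such miRNAs can widen the EV spread and lower r. Of the 221 EV calls, 44 had lysates that passed in the same direction, 37 in the opposite direction and 140 did not pass there.

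The batch difference itself differed between EVs and lysates for 254 of 574 miRNAs (44.3%), 97 of them with the EV value higher (16.9%) and 157 lower (27.4%). That split depended on scaling, with 135 and 127 under relative log expression factors, 138 and 110 under library totals and 148 and 130 with DESeq2, so the direction of a small difference is not settled. The median difference over all miRNAs shifted from -0.12 to 0.07, 0.12 and 0.07 in these settings. At equal depth 147 passed.

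miR-148a-3p had the highest difference, 3.04 ± 0.33 (log2, SE, edgeR adjusted p = 3.00e-07), as it went from 8003 ± 2920 to 4043 ± 863 CPM in lysates (SD, n = 6 each, CPM of the 24-library fit) while it rose in EVs. miR-7033-5p (2.81 ± 0.54), miR-219a-2-3p (2.57 ± 0.21), miR-143-3p (2.24 ± 0.14) and miR-3473e (2.22 ± 0.37) followed. For miR-7033-5p and miR-219a-2-3p the lysates fell (-2.42 and -1.41), and EV levels of miR-7033-5p did not pass (0.39). miR-7033-5p was scarce in lysates, with mean levels of 1.94 CPM (batch x) and 0.350 CPM (batch z), and at equal depth its difference was 1.44 and no longer passed.

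At the other end, at the same minimum of 20 CPM, stood miR-19b-3p (-2.46 ± 0.45), miR-326-3p (-2.41 ± 0.21), miR-137-3p (-2.40 ± 0.18), miR-324-5p (-2.08 ± 0.26) and miR-369-3p (-1.86 ± 0.34). Under that minimum, miR-376c-3p (-3.03 ± 0.45) and miR-376a-5p (-2.72 ± 0.40) had lower called differences. At equal depth that of miR-324-5p was -1.07 and no longer passed. For miR-137-3p the lysates rose from 124 ± 31.2 to 219 ± 28.2 CPM (edgeR adjusted p = 1.00e-06) while the EVs fell. Among the 44 EV calls whose lysates passed in the same direction was miR-146a-5p, also higher in batch z lysates (1.07 ± 0.12, from 37.0 ± 6.37 to 77.8 ± 3.90 CPM). So were miR-142a-5p (2.11) and miR-200b-3p (1.66). miR-690 fell in lysates by 2.28 on the log2 scale (54.98 ± 12.8 to 11.2 ± 3.89 CPM) without a called change in EVs.

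By list, the lysates had 2 of 15 vascular and mesenchymal miRNAs higher and 3 lower, none of 12 miR-17-92 members higher and 3 lower, and 19 of 80 Dlk1-Dio3 miRNAs higher and 3 lower. Neuron-enriched miRNAs were 7 higher and 7 lower of 23 there, and of all 574 miRNAs 15% were higher and 16.2% lower. The difference between EVs and lysates of a list as a whole was not tested.

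**Figure D5:**
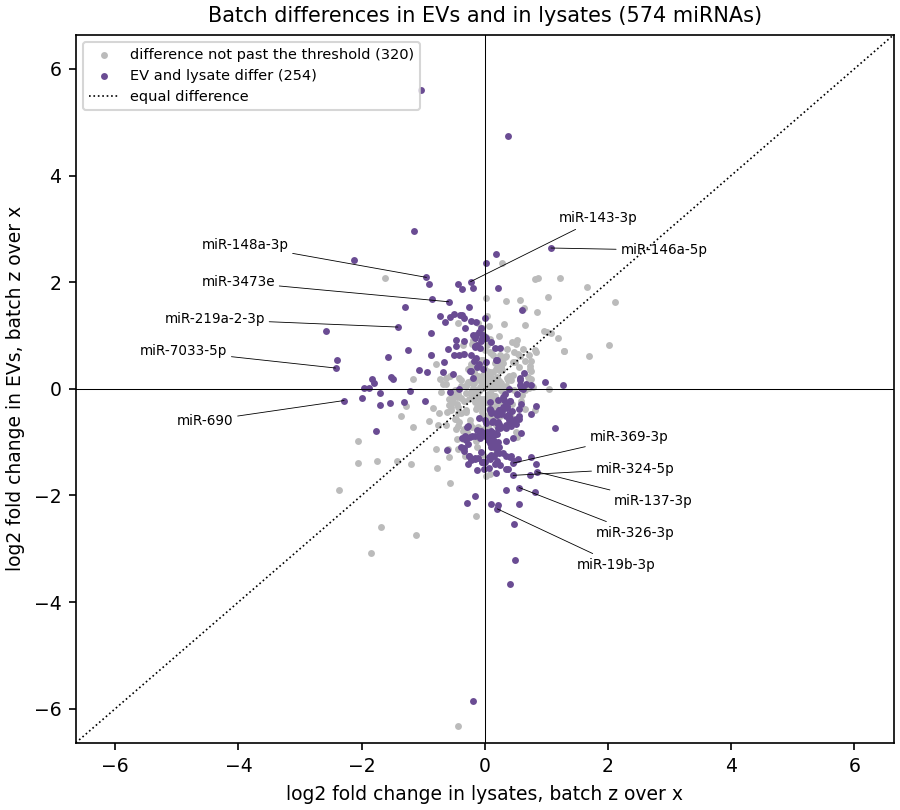
Log2 fold change, batch z over batch x, of 574 miRNAs in lysates (horizontal) against EVs (vertical). Purple points are the 254 miRNAs for which the EV and lysate differences differ, grey points the rest, and the dotted line marks equal differences. EV values spread more widely than lysate values and do not follow them, and the 574 include miRNAs of low count in EVs.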

How the data were processed

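The deposited small RNA table holds raw read counts per mature miRNA, not normalised, as the authors deposited it. The tools named in the submitters' processing notes are cutadapt 1.8.1, CASAVA 1.8 and 1.8.2 and DESeq2 with no version, and the build is mm10. Aligner, counter and the release of the miRNA annotation: not given in the sources used here. Per the labels' protocols, libraries were made with the NEBNext small RNA kit and run on a HiSeq2000. The table has 1915 entries, 542 at 0 in all 24 libraries. In 11 sets of entries with identical counts and at least 50 counts in all, 13 duplicates were dropped, leaving 1902. The table of hippocampal RNA was not used here.

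The batches were compared over the 12 EV libraries by a robust quasi-likelihood fit in edgeR 4.0.16 under R 4.3.3, with TMM factors, edgeR's expression filter (minimum count 10 on the 4 treatment-by-batch groups), treatment as covariate and Benjamini-Hochberg adjustment over all miRNAs tested, threshold 0.05. The treatment-by-batch interaction used the same libraries, and EV against lysate differences used all 24. Single library measures used exact permutation (SciPy 1.17.1). Library totals count miRNA reads only; PCR duplicates cannot be told apart, so counting precision is not molecular precision. Tests were tried on simulated counts first.

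Named miRNAs were the 12 highest and 12 lowest called among miRNAs averaging 20 CPM or more, the 10 most abundant, from each list the 2 called with the largest size of change, and, always, miR-690, miR-218-5p, miR-122-5p and both arms of miR-132. For EV against lysate they were the 5 highest and 5 lowest called at the same minimum of 20 CPM over the EV libraries. Further list, seed, cluster and arm members, and examples such as miR-151, were named after their values were seen. The comparison, the lists and the rules were chosen with earlier results of these data known, and no list serves as independent support. Alternatives were other scalings (RLE, totals), DESeq2 1.42.0, no filter, a minimum count of 50, omission of miR-9-5p or of the 10 most abundant, thinning to 377116 counts, each library left out, treatment subsets, all 24 libraries and replicate blocks (limma 3.58.1).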

Additional observations from a re-analysis of the deposited data

Results flagged for a closer look

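miR-384-3p stood at 42.3 CPM in Ctrl EV 3 beside 51.9 to 57.4 CPM in the other 5 EV libraries of batch x, a gap large for its range by Dixon's test. miR-137-3p stood at 229 CPM in Ctrl EV 1 beside 313 to 346, and let-7c-5p at 77256 CPM in the same library beside 61482 to 66596. These 3 came from 46 sets of 6 libraries, and chance alone gives about 1 in 20 sets.

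The batch difference differed between EVs and lysates, by edgeR's test of that difference, for 254 of 574 miRNAs. The named ones, with the EV minus the lysate log2 difference, were miR-148a-3p (3.04), miR-7033-5p (2.81), miR-219a-2-3p (2.57), miR-143-3p (2.24), miR-3473e (2.22), miR-369-3p (-1.86), miR-324-5p (-2.08), miR-137-3p (-2.40), miR-326-3p (-2.41) and miR-19b-3p (-2.46).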

How the results depend on the processing

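The 221 calls of 411 tested became 225 with RLE factors, 213 with library totals, 231 with DESeq2, 223 without miR-9-5p and 217 without the treatment term, each of 411. The number tested changed in other settings. There were 239 calls of 1153 without a filter on low counts, 167 of 259 with a minimum count of 50 and 167 of 297 after thinning. With all 24 libraries 283 of 574 were called, and in the BDNF EVs alone 187 of 374. The Ctrl EVs alone, with as many libraries as the BDNF EVs alone, had 128 of 402, and fits with each library left out had 205 to 236. Where tested, none of the 221 changed sign in any of these settings. Without the filter the calls split into 80 higher and 159 lower. After thinning to equal depth, 158 of the 176 calls still tested passed. Added after seeing the data, omission of number 8 gave 221 of 465 and omission of the 10 most abundant 218 of 403.

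Of 1137 values of the 43 called named miRNAs, 1109 kept direction and threshold, 28 lost the threshold (miR-132-3p, miR-7a-5p, miR-26a-5p, miR-96-5p and miR-466f-3p) and 0 reversed. Reversals concerned uncalled values near 0. let-7f-5p went to 0.052 (RLE and DESeq2), 0.025 (minimum count of 50), 0.091 (thinned), 0.089 (Ctrl EVs alone), 0.075 (without number 8) and -0.14 to 0.044 (each library left out). let-7i-5p went to 0.042 (RLE and DESeq2), 0.018 (minimum count of 50), 0.085 (thinned), 0.21 (BDNF EVs alone) and -0.14 to 0.062. miR-132-5p was -0.047 and miR-218-5p -0.097 without a filter, and miR-218-5p was -0.017 with all 24 libraries and -0.038 to 0.23 with each left out. miR-690 was 0.020 thinned, 0.025 without treatment, 0.49 in the BDNF EVs alone, 0.0067 with counts of a number summed, and -0.47 to 0.025 with each left out.

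EV against lysate, 254 became 147 when thinned, 140 with Ctrl libraries alone and 247 to 263 with each EV library left out; miR-7033-5p (1.44) and miR-324-5p (-1.07) no longer passed when thinned. The 3 of 6 library measures past the threshold became 0 in the Ctrl or BDNF EVs alone or with values of a number averaged, where 20 arrangements cannot reach p under 0.1; with each library left out, 3 passed, and the difference in the share of the 10 most abundant was -0.0356 to 1.09, in entries detected -0.233 to 9.77 and in effective number -0.107 to 1.33. No treatment-by-batch difference passed in any setting.

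Batches x and z share no replicate numbers. Same-numbered Ctrl and BDNF EVs did not detectably deviate together from their group means (r from -0.108 to 0.0105), so they were not treated as pairs. With group means of 3 libraries this cannot show whether same-numbered libraries share a culture. With the number as a replicate block, 232 of 411 miRNAs were called (limma voom, duplicateCorrelation), 225 of 482 with counts of a number summed, and 253 for EV against lysate. Batch z depth limits miRNAs of low count, and untested list members say nothing about change.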
